A study of Homo sapiens with 4 samples.

Results

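CHLA-266 is an established cell line of the MYC subgroup of atypical teratoid/rhabdoid tumor (AT/RT-MYC), a brain tumor of young children. Its cells were sequenced once without treatment and once after doxorubicin (doxo), then etoposide (eto), then vincristine (vin), and the 2 libraries are compared here gene by gene. Of the 18449 gene symbols in the deposited count table, the 13023 with at least 50 counts in at least 1 of the 2 libraries were compared. The comparison asks how the RNA of cells that had outlived the drugs differed from that of cells that had never met them.

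The study holds 4 libraries, namely untreated and treated BT-16, a further AT/RT-MYC line, and untreated and treated CHLA-266. Treated cells received 1 µM doxo, then 5 µM eto, then 1 µM vin on consecutive days. The methods state that most cells died, that resistant cells grew again weeks later, and that cells were harvested for RNA. The treated library is thus taken to hold survivors of 1 course of drugs. Genes of cell division were lower in it, as given below. Whether its cells were dividing when RNA was taken was not tested. Untreated cells received 0 µM of each drug. Each condition of CHLA-266 is 1 library from 1 cell line, so there is no replicate check, no p value can be given, and the spread between cultures is unknown. AT/RT cells as a rule lack a working SMARCB1 subunit of the SWI/SNF chromatin remodeler. SMARCB1 had 1313 counts in untreated and 827 in treated cells, which does not show whether the transcript is whole.

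The untreated library held 66192504 counts and the treated library 49849257. The treated library was the smaller, yet 17114 genes had at least 1 count in it, against 15464 in untreated cells and 15375 after the untreated library was thinned to the treated total. Mitochondrially encoded genes took 4.98% of untreated and 8.93% of treated counts. Each ratio below is treated over untreated on the log2 scale, after TMM scaling and with 0.5 counts added, and brackets hold its exact Clopper-Pearson 95% interval. These intervals and the floor of 3 counts cover counting error only. Counts from 1 to 20 were odd in 26.5% of untreated and 20.5% of treated genes, so both reads of a pair may have been counted, and the intervals are then too narrow. Genes that a tumor cell does not use serve as a reference for low counts. Of 390 olfactory receptor symbols, 92 had a count in untreated and 214 in treated cells, and their summed counts were 526 and 3731. The highest 5% of them lay above 3.59 counts per kb of transcript in untreated and above 21.0 in treated cells, and a gene under that level in treated cells is called near the olfactory level below.

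Dividing cells switch on their replication, mitosis and histone genes in waves. E2F factors act at the start of DNA synthesis. Complexes with MuvB, which bind the cell cycle genes homology region (CHR), act before mitosis. Doxo and eto trap topoisomerase II on DNA and so cause double-strand breaks, while vin blocks the assembly of microtubules from tubulin. Cells that survive such damage may stop dividing under p53 and CDK inhibitors, and NRF2, which KEAP1 holds back, drives genes against oxidative stress. TFEB and its relatives act on lysosome genes through the CLEAR element.

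The promoter stretches below are shown because they carry letters bound by factors that are known to act on the division, NRF2 and lysosome genes described below. They were read from RefSeq promoters on GRCh38.p14, a window of 250 bases before and 50 after each start site, and 10553 of the 13023 genes had such a promoter. Motifs were searched on both strands, a promoter counted once however many matches overlapped, and all stretches run 5′ to 3′ on the strand of the gene. Capitals mark the motif. The first set holds the CHR letters TTTGAA, which 21 of 32 mitosis genes with a promoter held (65.6%), against 15.4% of all 27305 promoters and 9.91% of the compared genes. The stretches lie at chr10:128126424-128126482 on the minus strand (MKI67) and on the plus strand at chr16:23678830-23678888 (PLK1), chr15:40161016-40161068 (BUB1B) and chr1:37692463-37692515 (CDCA8).
MKI67: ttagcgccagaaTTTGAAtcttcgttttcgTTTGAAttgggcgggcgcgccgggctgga
PLK1: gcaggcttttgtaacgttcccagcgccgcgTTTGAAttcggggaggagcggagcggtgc
BUB1B: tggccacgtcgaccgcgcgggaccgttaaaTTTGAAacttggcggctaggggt
CDCA8: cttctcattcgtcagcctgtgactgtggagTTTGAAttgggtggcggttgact
The last match began 29 bases before the start in MKI67 and PLK1 and 23 bases before it in BUB1B and CDCA8. Among the genes at least 8-fold lower in treated cells, 88 of 240 with a promoter held the CHR letters (36.7%).

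The E2F letters TTTCGCG or TTTGGCG were held by 12 of 30 replication genes with a promoter (40%), against 3.22% of all promoters and 5.08% of the compared genes. CCAAT was held by 33 of 39 histone promoters (84.6%), against 35.7% of all and 36.3% of the compared promoters. It was also held by 24 of 32 mitosis (75%), 17 of 30 replication (56.7%), 15 of 30 repair (50%) and 14 of 22 ATF4 target promoters (63.6%). NRF2 target promoters held it in 42.9% and lysosome and autophagy promoters in 21.4%. H2BC12 and H2AC6, the compared histones within 2-fold (-0.88 and -0.40), held it as well. The stretches lie at chr17:40287821-40287878 (CDC6, plus), chr16:88803732-88803788 (CDT1, plus), chr6:27867607-27867671 (H1-5, minus) and chr6:26056493-26056557 (H1-2, minus).
CDC6: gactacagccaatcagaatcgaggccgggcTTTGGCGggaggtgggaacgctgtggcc
CDT1: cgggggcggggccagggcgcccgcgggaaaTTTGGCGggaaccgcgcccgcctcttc
H1-5: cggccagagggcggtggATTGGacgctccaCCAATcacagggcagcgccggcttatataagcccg
H1-2: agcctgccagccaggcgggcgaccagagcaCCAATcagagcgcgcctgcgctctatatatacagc
In the stress groups the shares for the letters given next were smaller. The antioxidant response letters TGACNNNGC stood in 4 of 21 NRF2 target promoters (19.0%), against 13.6% of all and 14.8% of the compared promoters. The same letters stood in 8 of 28 lysosome and autophagy promoters (28.6%), 7 of 22 ATF4 target promoters (31.8%) and 8 of 32 mitosis promoters (25%), and PGD, which also held them, had a ratio of -0.03. The CLEAR letters CACGTGAC stood in 6 of 28 lysosome and autophagy promoters (21.4%), against 2.53% and 4.25%. The stretches lie at chr1:93909431-93909494 (GCLM, minus), chr12:104215650-104215718 (TXNRD1, plus), chr20:45891280-45891334 (CTSA, plus) and chr13:113297181-113297238 (LAMP1, plus).
GCLM: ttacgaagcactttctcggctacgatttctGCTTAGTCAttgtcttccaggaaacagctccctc
TXNRD1: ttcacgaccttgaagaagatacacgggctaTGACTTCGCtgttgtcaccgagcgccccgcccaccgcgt
CTSA: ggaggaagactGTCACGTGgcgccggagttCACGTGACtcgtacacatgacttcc
LAMP1: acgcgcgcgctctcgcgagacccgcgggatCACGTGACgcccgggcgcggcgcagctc
A match is a description of these letters and not a site that was measured.

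Over all 13023 genes, 2550 were at least 2-fold higher in treated cells (19.6%) and 1952 at least 2-fold lower (15.0%), so 34.6% differed by 2-fold or more. Of the genes beyond 2-fold, 56.6% were higher, against 65.4% when scaled by library totals and 71.6% when scaled by upper quartiles. The median log2 ratio was -0.10, and 880 genes were at least 8-fold higher and 300 at least 8-fold lower. The higher genes were mostly scarce. Among the 1071 genes with a mean level under 1 CPM (counts per 1000000), 81.5% were at least 2-fold higher, compared with 6.35% of the 2347 genes above 100 CPM. Of the 2550 higher genes, 1445 had fewer than 50 untreated counts and passed the minimum through the treated library alone, so they had to differ. With at least 50 counts in both libraries, 11235 genes remained, of which 1105 were higher (9.84%) and 1758 lower (15.6%), with a median of -0.21. Of the 2542 higher genes with a transcript length, 1744 (68.6%) stood above the olfactory level in treated cells. The groups below are 44 gene lists with 1243 distinct symbols, of which 1038 passed the minimum and were compared, and a list that loses more than 1 call when 50 counts are required in both libraries is also given that way. Counts of higher and lower members below are to be read beside the shares over all genes, 19.6% and 15.0%. With 50 counts in both libraries these shares are 9.84% and 15.6%, and a list near them does not stand out.

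**Figure D1:**
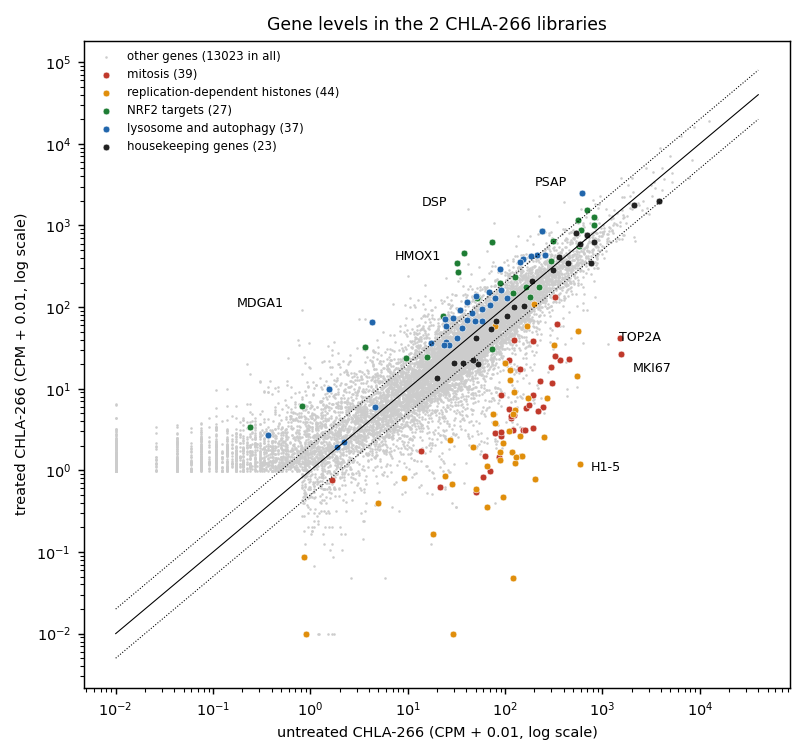
CPM of the 13023 genes in untreated (horizontal) and treated CHLA-266 cells (vertical), both on log scales with 0.01 CPM added. The solid line marks equal levels, the dotted lines 2-fold, and colored points are members of 5 gene lists. Mitosis genes and histones lie under the lower dotted line except H2BC12 and H2AC6, lysosome and NRF2 genes lie mostly above the solid line, and housekeeping genes lie along the solid line or a little under it.

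Genes of cell division were lower throughout. Of the mitosis genes, 39 of 40 listed were compared, and 39 were at least 2-fold lower with a median of -4.72, beside -0.10 over all genes. With 50 counts in both libraries, 35 were compared and 35 were lower. MKI67, the antigen Ki-67 of cycling cells, had 96814 counts without drugs and 1386 after them, a log2 ratio of -5.88 [-5.96, -5.81]. CDK1, the kinase that drives entry into mitosis, went from 9458 to 164 counts (-5.60 [-5.84, -5.38]). PLK1, a kinase of the spindle and centrosome, had 7124 and 227 counts (-4.72 [-4.92, -4.54]). SPC25, a subunit of the NDC80 complex of the kinetochore, was the lowest member at -6.51 [-7.13, -6.0], with 3082 and 28 counts. FOXM1, a transcription factor of the mitotic wave, had 12042 and 435 counts (-4.54 [-4.69, -4.41]). The smallest differences of the list were in KIF11, a spindle motor, with 20268 and 7008 counts (-1.29 [-1.33, -1.25]), and in NUSAP1, a spindle protein with 103 and 39 counts (-1.15 [-1.73, -0.61]). In a bulk library, fewer dividing cells and less RNA of these genes per cell cannot be told apart.

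All 36 compared replication genes, of 37 listed, were lower as well, with a median of -3.02. RRM2, a subunit of ribonucleotide reductase that makes deoxynucleotides, was the lowest with 33653 and 546 counts (-5.70 [-5.83, -5.58]). MCM10, which activates the replicative helicase, followed with 8209 and 192 counts (-5.17). The helicase subunit MCM2 had 12816 and 2673 counts (-2.02 [-2.08, -1.96]), and the sliding clamp PCNA had 18499 and 2698 (-2.53 [-2.59, -2.47]). The smallest difference was in RPA2, a subunit that coats single-stranded DNA, with 4135 and 1045 counts (-1.74 [-1.84, -1.64]). All members thus lay well beyond the 2-fold line, with counts too high for counting error to bring them back across it.

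The replication-dependent histones, which are made in S phase to pack new DNA, were lower still. Of 48 listed, 44 passed the minimum and 42 were at least 2-fold lower, with a median of -5.21, or -5.15 with genes at 0 set to their bound. Among the 31 with 50 counts in both libraries, 29 were lower and the median was -4.66. Linker histone H1-5 had 35949 counts in untreated and 62 in treated cells (-8.92 [-9.32, -8.58]), the lowest ratio of any gene with 50 counts in both. H3C12 had 1814 counts and then 0, at least 510-fold lower. H3C8 had 7401 and 2 counts (-11.29 [-14.66, -9.76]). The exceptions were H2BC12 with 12259 and 5611 counts (-0.88 [-0.93, -0.84]) and H2AC6 with 4813 and 3087 (-0.40 [-0.46, -0.33]). Histone genes have near-identical copies, so counts of single members are uncertain. The same holds for the AKR1C genes, HNRNPA1 and the clustered protocadherins below.

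Of 8 CDK inhibitors, CDKN1A and CDKN2B were higher, CDKN3 was lower, and the other 5 lay within 2-fold. CDKN1A, which encodes p21 and is a target of p53, had 6485 and 19760 counts (1.85 [1.81, 1.89]). CDKN2B, the p15 inhibitor of CDK4 and CDK6, had 651 and 2502 (2.19 [2.06, 2.31]). CDKN3, a phosphatase that is itself made in cycling cells, had 3995 and 128 counts (-4.71 [-4.99, -4.47]). CDKN2A, the gene of p16 and ARF, had 2275 and 960 counts, a log2 ratio of -1.0 [-1.11, -0.89] whose interval spans the 2-fold line.

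Genes that repair double-strand breaks and crosslinks were lower in 26 of 36 compared, with 0 higher and a median of -1.96. EXO1, a nuclease that resects DNA ends, had 4999 and 98 counts (-5.42 [-5.73, -5.14]). FANCD2 had 6315 and 203 counts (-4.71 [-4.92, -4.51]), and BRCA1 had 8905 and 411 (-4.19 [-4.34, -4.05]). Of the genes of end joining, PRKDC, the catalytic subunit of DNA-PK, had 97106 and 35722 counts (-1.20 [-1.22, -1.18]) and XRCC6, or Ku70, had 50015 and 15604 (-1.44 [-1.46, -1.41]). The damage kinase ATM had 13687 and 12084 counts (0.06 [0.03, 0.10]), and TP53BP1, which protects DNA ends from resection, had 13865 and 15961 (0.45 [0.41, 0.48]).

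The targets of the drugs themselves differed among each other. TOP2A, the topoisomerase II of cycling cells, went from 70677 to 1826 counts (-5.03 [-5.10, -4.96]), whereas TOP2B, the form that resting cells also use, had 21628 and 10037 (-0.86 [-0.90, -0.83]). Of the tubulins, the beta chain TUBB was lower with 54472 and 15607 counts (-1.56 [-1.58, -1.53]), TUBB6 was lower with 18266 and 5311 (-1.54 [-1.58, -1.49]), and TUBB4A was higher with 1262 and 3695 (1.79 [1.70, 1.89]). TUBB3 had 470 and 662 counts (0.74 [0.57, 0.91]). Of the efflux pumps, ABCC3 had 50 and 323 counts (2.92 [2.50, 3.40]) and ABCC1 had 15833 and 17703 (0.41 [0.37, 0.44]). ABCB1, the gene of P-glycoprotein, had 0 and 52 counts, at least 20.5-fold higher, but it stood near the olfactory level in treated cells. Over the list of 20 compared genes, 3 were higher and 6 lower.

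**Figure D2:**
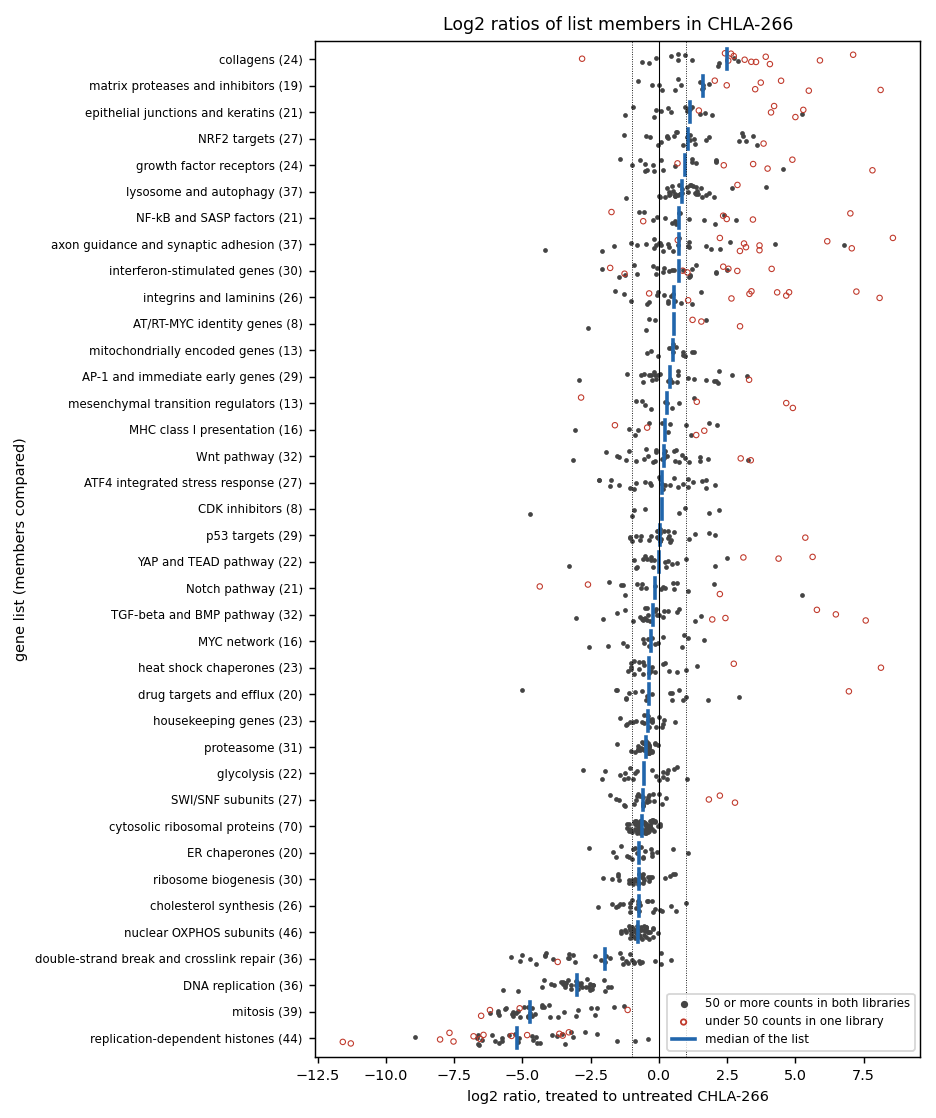
Log2 ratios of treated to untreated CHLA-266 cells for the members of the gene lists other than markers of other cells and tissues, with the number of members compared in parentheses. Each point is a gene, open where it had fewer than 50 counts in 1 library, the blue bars are list medians, and the dotted lines mark 2-fold. The 4 lists of division and repair stand left of the others, while the lists furthest to the right hold many open points.

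Targets of p53 showed no common direction. Of 29 compared, 5 were higher and 3 lower, beside 19.6% and 15.0% of all genes, and the median was 0.05. PLK2, a kinase of the damage response, had 18 and 642 counts (5.36 [4.73, 6.16]). GDF15, a secreted stress factor, had 1618 and 5688 (2.06 [1.98, 2.14]), GADD45A had 2151 and 4542 (1.32 [1.25, 1.40]), and MDM2, the ligase that degrades p53, had 25645 and 46938 (1.12 [1.09, 1.14]). CDKN1A, given above, was the remaining higher member. In contrast, the apoptosis gene BAX had 3641 and 1460 counts (-1.07 [-1.16, -0.99]), and the death receptor FAS had 3029 and 2529 (-0.02 [-0.09, 0.06]).

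NRF2 targets were higher in 15 of 27 compared of 30 listed, with 1 lower and a median of 1.05, and 26 of them had 50 counts in both libraries, of which 14 were higher. HMOX1, which degrades heme, had 1959 and 17950 counts (3.44 [3.37, 3.51]). The catalytic and the modifier subunit of glutathione synthesis were both higher, GCLC with 2022 and 13962 counts (3.03 [2.96, 3.10]) and GCLM with 3203 and 6737 (1.32 [1.26, 1.38]). The aldo-keto reductases AKR1C1, AKR1C2 and AKR1C3, which reduce carbonyl groups of steroids and drugs, stood at 3.08, 3.61 and 3.17. AKR1C1 had 4564 counts in untreated and 32651 in treated cells. The cystine transporter SLC7A11 had 19261 and 33590 counts (1.05 [1.02, 1.07]), and the ferritin light chain FTL had 43053 and 80658 (1.15 [1.13, 1.17]). NQO1, a quinone reductase, had 50352 and 65473 counts (0.62 [0.61, 0.64]) and lay within 2-fold. NFE2L2, which encodes NRF2, had 18135 and 19202 counts (0.33), and KEAP1, its inhibitor, was the lower member with 4556 and 1576 (-1.29 [-1.37, -1.20]).

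Lysosome and autophagy genes were higher in 18 of 37 compared of 41 listed, with 1 lower and a median of 0.85, and their summed level was 2991 CPM in untreated and 7655 CPM in treated cells. PSAP, the precursor of the saposins that help to degrade sphingolipids, had 37972 and 129572 counts (2.02 [2.0, 2.03]). SQSTM1, the cargo receptor p62, had 14734 and 44859 (1.85 [1.82, 1.88]), and GABARAPL1, a protein of the autophagosome membrane, had 266 and 3399 (3.92 [3.74, 4.11]). The protease cathepsin D gene CTSD had 1777 and 3851 counts (1.36 [1.28, 1.44]), the membrane protein gene LAMP1 13189 and 22702 (1.03 [1.00, 1.06]), and GLB1, whose product is the beta-galactosidase stained in senescent cells, 2108 and 4736 (1.41 [1.34, 1.49]). GUSB was the lower member, with 3057 and 1122 counts (-1.20 [-1.30, -1.10]). Of the factors that act on these genes, TFEB had 136 and 114 counts (-0.01 [-0.38, 0.36]) and MITF 22 and 139 (2.88 [2.25, 3.62]).

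The other stress lists showed no common direction. Of 27 ATF4 targets, 7 were higher and 6 lower, with a median of 0.13. The higher ones included DDIT3, or CHOP, with 322 and 1125 counts (2.05 [1.87, 2.23]), and CHAC1, which degrades glutathione, with 56 and 158 (1.73 [1.29, 2.21]). Of the lower ones, the amino acid transporter SLC7A5 had 13199 and 2431 counts (-2.20 [-2.26, -2.13]) and the serine synthesis gene PSAT1 4579 and 1409 (-1.46 [-1.54, -1.37]). Of 20 ER chaperones, 7 were lower and 1 higher (median -0.73), with HSPA5, the main one, at 51622 and 28926 counts (-0.59 [-0.61, -0.57]). Of 23 heat shock chaperones, 4 were lower and 3 higher (median -0.35), or 4 and 1 of the 21 with 50 counts in both libraries. HSP90AA1 had 476398 and 197223 counts (-1.03 [-1.04, -1.02]), whereas the small heat shock protein gene HSPB8 had 0 and 118, at least 46.6-fold higher. Proteasome subunits were lower in 2 of 31 and higher in 0, with a median of -0.49.

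Lists of lipid and sugar metabolism had medians below 0, with most members within 2-fold. Cholesterol synthesis genes were lower in 9 of 26 with 1 higher (median -0.74). Their summed counts were 245398 in untreated and 207814 in treated cells, or 3986 and 3999 CPM. The higher member, the fatty acid desaturase SCD, supplied 56551 and 95875 of these counts (1.01 [0.99, 1.02]). The like sums therefore rest on SCD and do not describe the other members. The feedback regulator INSIG1 had 4064 and 1141 counts (-1.59 [-1.68, -1.49]). Of 22 glycolysis genes, 8 were lower and 1 higher (median -0.53), with the phosphofructokinase PFKP at 10137 and 1229 counts (-2.80 [-2.89, -2.71]), lactate dehydrogenase LDHA at 50497 and 10860 (-1.97 [-2.0, -1.94]) and pyruvate kinase PKM at 128310 and 135109 (0.32 [0.31, 0.33]).

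Subunits of oxidative phosphorylation differed by genome. Of 46 nuclear genes, 11 were lower and 0 higher, with a median of -0.77, and CYC1 of complex III was lowest with 7163 and 2308 counts (-1.39 [-1.46, -1.32]). All 13 mitochondrial genes were compared, 2 were higher and 0 lower, and the median was 0.52. MT-ND6, the subunit that lies on the other strand of the mitochondrial genome, had 95375 and 198239 counts (1.30 [1.29, 1.31]), MT-CYB had 239555 and 464152 (1.20 [1.19, 1.21]), and MT-ATP8 had 109477 and 68518 (-0.43 [-0.45, -0.42]).

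Genes of protein synthesis were lower by less than 2-fold in most cases. Of 70 cytosolic ribosomal proteins, 6 were at least 2-fold lower and 0 higher, with a median of -0.61 and a range from RPS7 (54337 and 20274 counts, -1.18 [-1.20, -1.15]) to RPL22 (8452 and 7337, 0.04 [-0.01, 0.09]). Of 30 ribosome biogenesis genes, 7 were lower and 0 higher (median -0.73), with FBL, which methylates ribosomal RNA, at 7588 and 1565 counts (-2.03 [-2.11, -1.95]) and the nucleolar protein NPM1 at 183649 and 71898 (-1.11 [-1.12, -1.10]). Splicing factors named HNRNP or SRSF, a set chosen after values were seen, had 0 of 32 genes higher and 15 lower, with a median of -0.98. HNRNPA1, which binds pre-mRNA, had 133261 and 33692 counts (-1.74 [-1.76, -1.72]). Among 23 housekeeping genes, 4 were lower and 0 higher, with a median of -0.40, so a list median of that size lies within the range of genes used as constant references.

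MYC, the oncogene that names the subgroup, had 11515 counts in untreated and 7505 in treated cells (-0.37 [-0.42, -0.33]). Of 16 genes of its network, 2 were higher and 4 lower (median -0.31). The antagonists MXD1 and MXI1 were the higher ones, with 838 and 2249 counts (1.67 [1.55, 1.78]) and 677 and 1202 (1.07 [0.94, 1.21]). TERT, the catalytic subunit of telomerase, had 857 and 121 counts (-2.57 [-2.87, -2.30]), and ODC1, the first enzyme of polyamine synthesis, had 18670 and 6964 (-1.18 [-1.22, -1.14]).

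**Figure D3:**
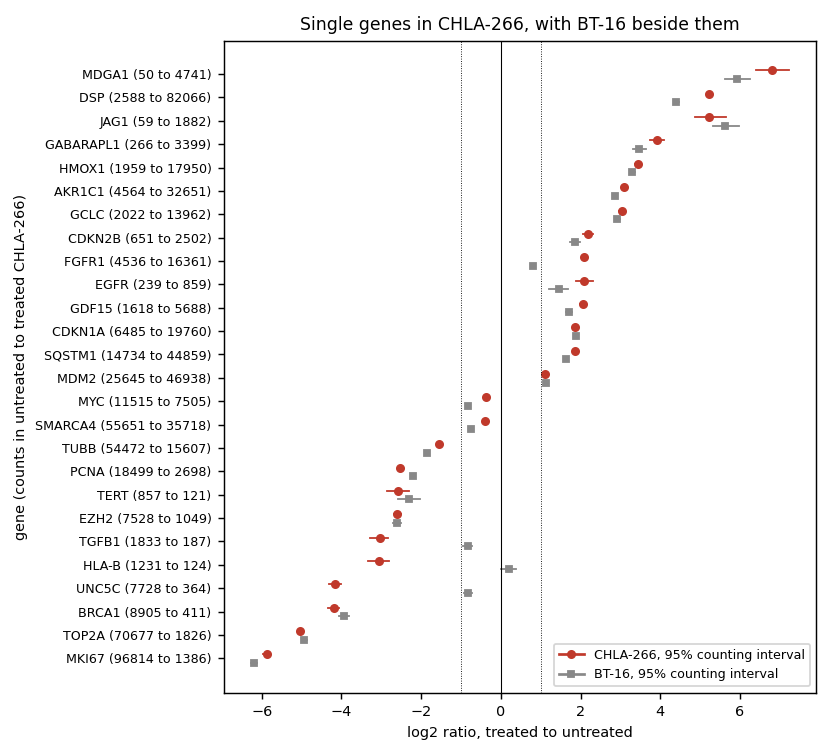
Log2 ratios of 26 single genes in CHLA-266 (red circles) and BT-16 (gray squares), with bars for 95% counting intervals and, beside each name, the counts in untreated and treated CHLA-266 cells. Dotted lines mark 2-fold. Both lines lie on the same side for most genes, while TGFB1, HLA-B and UNC5C are lower in CHLA-266 by over 2 log2 units more than in BT-16.

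Immune genes differed within each list. Of 30 interferon-stimulated genes compared, 13 were higher and 5 lower (median 0.72), or 8 and 3 of the 22 with 50 counts in both libraries (median 0.43). The RNA sensor RIGI had 202 and 728 counts (2.09 [1.87, 2.33]) and IFIT1, which binds foreign RNA, had 830 and 1800 (1.36 [1.24, 1.48]), whereas IFITM2 and IFITM3, membrane proteins that block virus entry, had 3726 and 749 (-2.07 [-2.19, -1.96]) and 5257 and 1596 (-1.48 [-1.56, -1.39]). Of 16 genes of class I presentation, 6 were higher and 3 lower, or 4 and 2 of the 12 with 50 counts in both. HLA-B, a heavy chain of the class I complex, had 1231 and 124 counts (-3.06 [-3.35, -2.80]), while the peptide transporter TAP1 had 909 and 2709 (1.82 [1.71, 1.93]) and the light chain B2M 11676 and 10741 (0.12 [0.09, 0.16]). HLA genes vary between people and share sequence, so their counts depend on alignment. Of 39 genes of NF-kB and the senescence-associated secretory phenotype, 21 were compared, 9 were higher and 1 lower (median 0.75), or 5 and 0 of the 15 with 50 counts in both (median 0.61). Those not compared, with fewer than 50 counts in each library, included the secreted factors IL6, CXCL8, IL1A, CCL2, CXCL1, MMP1 and MMP3. The lower member was IGFBP7 with 120 and 30 counts (-1.74). IGFBP3, which binds insulin-like growth factors, had 1046 and 6263 counts (2.83 [2.73, 2.92]) and the macrophage growth factor CSF1 916 and 4047 (2.39 [2.28, 2.49]), while NFKBIA, the inhibitor of NF-kB, had 7070 and 5753 (-0.05 [-0.10, -0.00]).

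In the TGF-beta and BMP list, 7 of 32 were higher and 4 lower (median -0.22), but 2 were higher and 4 lower of the 27 with 50 counts in both libraries (median -0.44). The ligand TGFB1 had 1833 and 187 counts (-3.05 [-3.27, -2.83]) and BMP7 400 and 82 (-2.03 [-2.40, -1.70]), whereas the ligand subunit INHBA, near the olfactory level, had 2 and 116 (5.79 [4.22, 9.17]) and the BMP antagonist NOG 2 and 188 (6.48 [4.93, 9.86]). The receptor TGFBR2 had 0 and 80 counts, at least 31.6-fold higher, and stood near the olfactory level. SMAD2 and SMAD3, which carry the signal, had ratios of -0.13 and 0.15.

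In the Notch list 4 of 21 were higher and 6 lower, or 3 and 4 of the 18 with 50 counts in both. The ligand JAG1 had 59 and 1882 counts (5.23 [4.87, 5.64]) and the ligand DLL4 314 and 1063 (2.0 [1.82, 2.19]). The target NRARP had 842 and 34 counts (-4.37 [-4.93, -3.89]) and the target HEYL 355 and 49 (-2.60 [-3.07, -2.18]), while HEY1, the most abundant target per kb, had 20250 and 12298 (-0.48 [-0.51, -0.44]). Of 32 Wnt genes, 7 were higher and 6 lower, or 5 and 6 of the 30 with 50 counts in both. The antagonist DKK1 had 69 and 569 counts (3.28 [2.93, 3.67]), the receptor FZD2 592 and 56 (-3.15 [-3.58, -2.76]), and the co-receptor LRP6 49335 and 18093 (-1.20 [-1.23, -1.18]).

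Of 22 genes of YAP and TEAD, 5 were higher and 1 lower, but 2 and 1 of the 19 with 50 counts in both libraries (median -0.20). The target CCN2 had 1355 and 6410 counts (2.49 [2.40, 2.57]), its relative CCN1 43494 and 31880 (-0.20 [-0.22, -0.18]), and the factor TEAD4 1353 and 116 (-3.29 [-3.59, -3.03]). AP-1 and immediate early genes were higher in 10 of 29 and lower in 2 (median 0.42). EGR1 had 4862 and 537 counts (-2.93 [-3.07, -2.81]), while DUSP4, a phosphatase of MAP kinases, had 655 and 5222 (3.24 [3.12, 3.36]) and JUN had 3271 and 5738 (1.06 [0.99, 1.12]). Growth factor receptors were higher in 12 of 24 and lower in 2, and among the 18 with 50 counts in both libraries in 7 and 2. FGFR1 had 4536 and 16361 counts, EGFR 239 and 859 (2.09 [1.88, 2.30]), and the neurotrophin receptor NTRK2 53 and 1064 (4.56 [4.17, 5.00]). FGFR3 was the lowest, with 9085 and 2832 counts (-1.44 [-1.50, -1.38]).

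Many matrix genes passed the minimum through the treated library alone. Of 31 collagens, 24 were compared and 16 were higher with 1 lower (median 2.48), but among the 12 with 50 counts in both libraries 5 were higher and the median was 0.83, and 10 of the 16 higher ones stood above the olfactory level. COL7A1, which anchors epithelia, had 593 and 3769 counts (2.91 [2.79, 3.04]) and COL6A1 1678 and 3294 (1.22 [1.13, 1.30]). COL5A1, the most abundant per kb, had 29464 and 34207 counts (0.46 [0.44, 0.48]), and COL1A2 was the lower one with 412 and 49 (-2.81 [-3.29, -2.40]). Matrix proteases and their inhibitors were higher in 12 of 19 and lower in 0, or in 5 of the 12 with 50 counts in both. TIMP3, an inhibitor, had 728 and 2205 counts (1.84 [1.72, 1.97]), and the protease ADAMTS7 1977 and 5058 (1.60 [1.52, 1.68]). Of 26 integrins and laminins, 11 were higher and 3 lower, with 2 and 3 among the 16 counted 50 times in both. The integrin ITGA6 had 9046 and 22445 counts (1.56 [1.52, 1.59]), ITGAV had 42867 and 84615 (1.23 [1.21, 1.24]), and ITGB1 had 52335 and 43471 (-0.02 [-0.04, -0.01]).

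Of 20 regulators and markers of mesenchymal transition, 13 were compared, 4 were higher and 1 lower (median 0.29), or 1 and 0 of the 9 with 50 counts in both. VIM, an intermediate filament, had 117192 and 120804 counts (0.29 [0.28, 0.30]) and N-cadherin gene CDH2 17137 and 16677 (0.21 [0.17, 0.24]). Of the repressors of epithelial genes, ZEB1 had 7929 and 9417 counts (0.49 [0.45, 0.54]), ZEB2, near the olfactory level, 6 and 164 (4.91 [3.86, 6.48]) and TWIST2 380 and 44 (-2.85 [-3.35, -2.41]).

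Epithelial junction and keratin genes were higher in 13 of 21 and lower in 1, or in 8 and 1 of the 16 with 50 counts in both (median 1.00). DSP, or desmoplakin, which ties desmosomes to keratin, had 2588 counts in untreated and 82066 in treated cells (5.23 [5.17, 5.29]), a level of 42.0 and 1579 CPM. Keratin 8 (KRT8) had 7895 and 14514 counts (1.12 [1.08, 1.16]) and keratin 18 (KRT18) 1820 and 3207 (1.06 [0.98, 1.15]). The mucin MUC1, also known as epithelial membrane antigen, had 763 and 1497 (1.22 [1.09, 1.34]). E-cadherin (CDH1) had 6 and 94 counts (4.11 [3.04, 5.70]) and stood near the olfactory level.

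Genes of axon guidance and synaptic adhesion were higher in 18 of 37 and lower in 4 (median 0.74), or in 9 and 4 of the 27 with 50 counts in both (median 0.34). MDGA1, which tunes synaptic adhesion, had 50 and 4741 counts, the highest ratio of all genes with 50 counts in both at 6.80 [6.41, 7.24]. The semaphorin receptor subunit PLXNA2 had 59 and 968 counts (4.27 [3.9, 4.69]), NRP2 had 8 and 515 (6.17 [5.26, 7.47]), and the semaphorin SEMA3D had 0 and 160, at least 63.2-fold higher. The netrin receptor UNC5C was far lower, with 7728 and 364 counts (-4.16 [-4.32, -4.01]). The most abundant gene of the list, the guidance ligand SLIT2, had 94224 and 57464 counts (-0.47 [-0.48, -0.45]).

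Clustered protocadherins, cadherin-like surface proteins by which neurons tell their own branches apart, stood out as a family and were chosen after their values were seen. They lie in 3 clusters on chromosome 5 (GENCODE 44 on hg38), alpha from 140794852 to 141012347, beta from 141051374 to 141249365 and gamma from 141330514 to 141512977. Of 53 symbols, 50 had 50 counts in at least 1 library and 46 were higher with 0 lower, with a median of 2.04 and a range from 0.20 to 5.02. Their summed level was 373 CPM in untreated and 1214 CPM in treated cells. The alpha cluster was higher in 12 of 14 (median 1.78), the beta cluster in 12 of 14 (2.46), and the gamma cluster in 22 of 22 (2.19). PCDHGB1 had 100 and 785 counts (3.21) and PCDHB13 133 and 1127 (3.32). PCDHB5, the most abundant per kb, was the least different with 5137 and 4991 counts (0.20). Alpha genes and gamma genes each share constant exons, so their counts depend on how shared reads were treated and are no independent measurements. Genes with 50 counts in both libraries were also grouped by a common symbol stem. Of 146 such groups with at least 10 members, gamma, beta and alpha protocadherins had the 3 highest medians. The cytochromes P450 (CYP) followed with a median of 1.28 and 8 of 14 higher, beside 9.84% of all genes under this minimum. Among them was CYP4F11 with 1755 and 5444 counts (1.88).

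**Figure D4:**
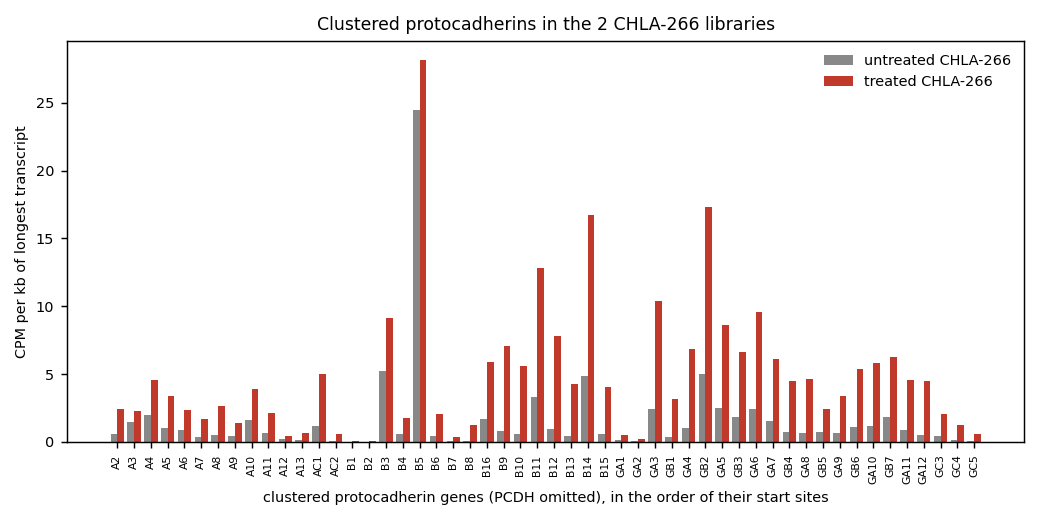
CPM per kb of longest transcript of 52 clustered protocadherin genes in untreated (gray) and treated CHLA-266 cells (red), in the order of their start sites on chromosome 5. Bars are single libraries and have no error. The red bar is the taller for each gene that is visible above the axis, and PCDHB5 has the tallest pair.

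Markers of the subgroup were checked against the label. Of 21 listed, 8 passed the minimum, 4 were higher and 1 lower (median 0.54), or 1 and 1 of the 5 with 50 counts in both, while 8 had 3 counts or fewer in untreated cells and 4 had 0 in both libraries. MYC and HMGA2, a chromatin protein of early development, were abundant in untreated cells, with HMGA2 at 13525 and 8163 counts (-0.48 [-0.52, -0.44]). Of the HOXC genes, HOXC9 alone passed the minimum, with 176 and 133 counts (-0.16 [-0.50, 0.17]), and HOXC5 and HOXC11 had 0 counts in both libraries. EZH2, the methyltransferase of the Polycomb complex, had 7528 and 1049 counts (-2.60 [-2.69, -2.51]). The 4 higher members were HOXB3, HOXB4, IGF2BP3 and LIN28B, with ratios up to 2.97, and 2 of them stood above the olfactory level in treated cells. HOXB4 had 36 and 90 counts (1.55 [0.99, 2.17]), beside -1.25 in BT-16. Of 27 SWI/SNF subunits, 3 were higher and 5 lower (median -0.57), but 0 and 5 of the 24 with 50 counts in both libraries. SMARCA4, the ATPase of the complex, had 55651 and 35718 counts (-0.40 [-0.41, -0.38]), and its alternative SMARCA2, near the olfactory level, had 25 and 148 (2.79 [2.19, 3.48]).

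The highest ratios among genes with 50 counts in both libraries, after MDGA1, DSP and JAG1, belonged to genes of several kinds. MAP2, a neuronal protein of microtubules, had 52 and 1255 counts (4.82 [4.44, 5.27]), and SPP1, the secreted phosphoprotein osteopontin, had 619 and 12608 (4.59 [4.48, 4.71]). The surface glycoprotein CD24 had 108 and 1944 (4.41 [4.13, 4.71]). The neuronal pentraxin NPTX2 had 194 and 3682 (4.49 [4.28, 4.71]), CFAP58, a protein of cilia and flagella, 92 and 1729 (4.47 [4.17, 4.80]), and the potassium channel KCNMA1 225 and 3702 (4.28 [4.09, 4.49]). By CPM the largest gains were in mitochondrial genes, PSAP, and the large scaffold proteins AHNAK (1995 and 3813 CPM) and AHNAK2 (403 and 1953 CPM). The largest losses included HSP90AA1 (7739 and 3795 CPM), SCG2, a granule protein of neuroendocrine cells (8323 and 6414 CPM), ACTB (3841 and 2010 CPM) and MKI67 (1573 and 26.7 CPM).

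At or under 3 counts in untreated and at least 50 in treated cells were 358 genes, and 11 showed the reverse. Of 357 such gained genes with a transcript length, 134 (37.5%) stood above the olfactory level. The most counted were GATA6, a transcription factor of endoderm and heart, with 0 and 338 counts (at least 133-fold higher), BAMBI, a decoy receptor of TGF-beta, with 0 and 326 (at least 129-fold), DPYSL3, a neuronal protein of growth cones, with 0 and 229 (at least 90.4-fold) and ARHGAP42 with 0 and 228 (at least 90.03-fold), all 4 above the olfactory level. Besides histones, the largest losses were in C1QL1 with 360 and 2 counts (-6.93 [-10.30, -5.38]), the leptin receptor LEPR with 162 and 2 (-5.78 [-9.15, -4.22]) and the ligand NRTN with 106 and 0, at least 29.8-fold lower.

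BT-16, treated in the same way, shows how far the ratio of a gene can differ in a further line. Over 12697 genes with 50 counts in at least 1 library of each line, the ratios of both lines had a Pearson r of 0.864 and a Spearman rho of 0.863 across genes, which are not independent and share batch and preparation. Of 2293 genes higher in CHLA-266, 1693 (73.8%) were higher in BT-16, and these were 84.0% of the 2015 higher genes of BT-16. Of 1933 lower genes, 1417 (73.3%) were lower in BT-16, or 71.9% of its 1970. The difference between the lines has no test with 1 library per line and condition, and its median size was 0.295. Division genes had like medians, -4.73 for mitosis and -3.09 for replication in BT-16. Cholesterol synthesis had -1.65 in BT-16 beside -0.74, mitochondrial genes 1.17 beside 0.52, and clustered protocadherins 1.21 beside 2.04, with 48 of 50 higher in ratio in CHLA-266.

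Some well-counted genes differed in CHLA-266 and hardly in BT-16. With at least 500 counts in all 4 libraries and a BT-16 ratio within 0.5, the following were at least 4-fold higher or lower in CHLA-266, and they were chosen by this filter after values were seen. The giant cadherin FAT1 had 4707 and 55261 counts (3.80 [3.75, 3.84]), beside 13523 and 15466 in BT-16 (0.45). The motor MYO10 of filopodia had 581 and 3115 counts (2.67, beside 0.14) and the retinoid isomerase RPE65 598 and 2440 (2.27, beside 0.35). Lower were TNFRSF19, a receptor of the tumor necrosis factor family, with 9999 and 758 counts (-3.48, beside -0.27) and SAMHD1, which degrades deoxynucleotides, with 13855 and 2805 (-2.06, beside -0.20). Of the genes named above, HLA-B had 0.19 in BT-16, DLL4 0.01, UNC5C -0.82, TGFB1 -0.83 and FGFR1 0.80.

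**Figure D5:**
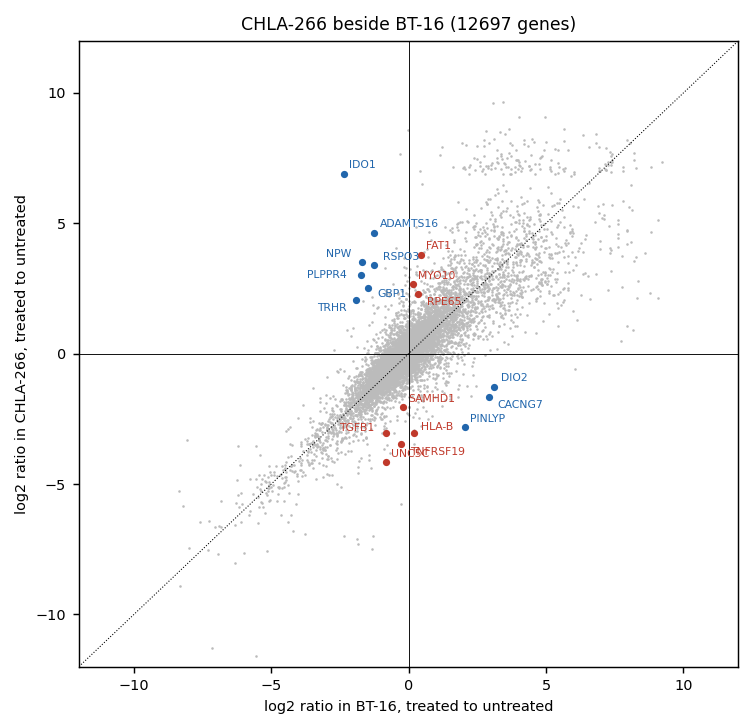
Log2 ratios of treated to untreated cells in BT-16 (horizontal) and CHLA-266 (vertical) for 12697 genes; the dotted line marks equal ratios. Blue points are the 10 genes furthest apart among those at least 2-fold higher in one line and lower in the other, and red points are genes with a large ratio in CHLA-266 and a smaller one in BT-16, such as FAT1 at 3.80 and 0.45.

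Markers of other cell types were counted in each library for all list members present in the count table. Summed counts in untreated and treated cells were 1072 and 1207 for 12 fibroblast and pericyte markers and 514 and 699 for 10 endothelial ones. They were 212 and 512 for 15 myeloid markers and 238 and 264 for the 9 of 14 lymphoid markers present. TRAC, TRBC1, TRBC2, IGHM and IGKC were not in the count table. Higher by 2-fold or more were 3 of 7 compared fibroblast, 4 of 5 endothelial, 5 of 6 myeloid and 1 of 2 lymphoid markers. With 50 counts in both libraries these were 1 of 3 fibroblast, 0 of 1 endothelial, 0 of 1 myeloid and 0 of 1 lymphoid markers, so the higher endothelial and myeloid ones had passed through the treated library alone. Of 16 glial and neuronal markers, 14 were in the count table, and these summed to 1163 and 3086 counts. Among them 8 of 9 compared were higher, or 1 of 2 with 50 counts in both, and MAP2 supplied most of the gain. Genes of single tissues such as lung, pancreas or muscle summed to 1129 and 2387 counts with 10 of 12 compared higher, or 1 of 3 with 50 counts in both, for example the lung surfactant gene SFTPC with 0 and 69 counts (at least 27.2-fold) and the thyroid gene TG, near the olfactory level, with 6 and 110 (4.33). Some defining markers were at or near 0, with LUM, CD3E and JCHAIN at 0 in both libraries, CD68 at 1 and 0, C1QB at 0 and 4, COL3A1 at 0 and 8, and the hepatocyte gene ALB at 0 and 20. Others had more counts, as COL1A1 had 186 and 305, PDGFRA 15 and 206, VWF 40 and 216, CDH5 0 and 58, CD163 0 and 63, S100A9 0 and 68, CSF1R 166 and 98 and CD4 216 and 110. Of these, CDH5 and CD163 stood near the olfactory level in treated cells. The part of all these markers in the results on scarce genes was not tested.

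The log2 ratio had a weak relation to transcript length and GC content, and shorter transcripts had the lower medians. Across 11200 genes with 50 counts in both libraries, Spearman's rho was 0.156 with transcript length and 0.093 with GC content, a description across genes without a test. Medians of 4 equal groups by length were -0.39, -0.23, -0.14 and -0.09 from short to long transcripts. Medians by chromosome lay between -0.33 (13) and -0.10 (10). On chromosome 5, 16.2% of 536 genes were higher, and 9.55% of 492 without the clustered protocadherins.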

How the data were processed

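The authors sequenced stranded, amplified cDNA libraries with paired ends on an Illumina instrument, demultiplexed the reads with bcl2fastq 2.20 (per the submitters' processing notes), trimmed them, placed them on hg38 with STAR, and derived a count for each gene. Genes on the sex chromosomes and genes counted repeatedly were removed according to the methods. The estimated counts that the authors deposited carry no normalization, and 5 values that were not whole were rounded. Whether a read pair gave 1 or 2 counts is not given in the sources used here. The log2 values that the authors deposited come from the variance-stabilizing transformation of DESeq2 and were used only as an alternative.

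Counts of the 18066 symbols with a nonzero total were scaled by TMM factors over all 4 libraries (edgeR 4.0.16 in R 4.3.3), which were 0.930 for untreated and 1.04 for treated CHLA-266 cells. For the 13023 genes with at least 50 counts in at least 1 CHLA-266 library, 0.5 counts were added before the log2 ratio was taken, and 95% intervals were exact Clopper-Pearson ones (scipy 1.17.1 in Python 3.11.15), and a ratio of at least 2-fold counted as higher or lower. With 1 library per condition no test between conditions was run. A fold against 0 counts is a bound against the floor of 3 counts per library. Depth was 66192504 and 49849257 counts, which sets the width of the intervals. Transcript lengths and positions came from GENCODE 44 on hg38, in which 12979 of the compared genes had an entry, and promoters from RefSeq. The scripts were tested on simulated counts.

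Members and lists were chosen with earlier results of these data known, and 1 list read from labels of a figure of the study was left out after its values were seen. Named genes are key genes marked in each list, the highest, lowest and most abundant member of each list, the 10 highest and 10 lowest ratios with 50 counts in both libraries, the 10 largest gains and losses in CPM, the 5 most counted genes gained or lost, and the 10 genes furthest apart between the lines in opposite directions. Other genes are named from values seen, and some genes that the rule names are not reported here. Alternatives were other scalings (upper quartile, DESeq2 1.42.0 size factors, library totals), other minimum counts, halved counts, other added counts and differences of the deposited log2 values. BT-16 libraries were used for scaling and for values beside those of CHLA-266.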

Additional observations from a re-analysis of the deposited data

Results flagged for a closer look

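Of 36 genes that were at least 2-fold higher in one line and at least 2-fold lower in the other, the 10 whose ratios lay furthest apart are given here. With 1 library per line and condition the difference between the lines was not tested, and most of these genes had few counts. IDO1, which degrades tryptophan, had 0 and 50 counts in untreated and treated CHLA-266 cells, a fitted log2 ratio of 6.90 and at least 19.7-fold higher, but 243 and 39 in BT-16 (-2.37). GBP1, a GTPase induced by interferon, had a ratio of 2.51 with 10 and 50 counts, beside -1.47 in BT-16. The matrix protease ADAMTS16 stood at 4.64 (4 and 94 counts) beside -1.25, and the Wnt potentiator RSPO3 at 3.38 (10 and 92 counts) beside -1.27. The neuropeptide NPW had 3.50 with 10 and 100 counts beside -1.71, the membrane protein PLPPR4 had 3.03 with 8 and 58 counts beside -1.72, and TRHR, the receptor of thyrotropin-releasing hormone, had 2.05 with 35 and 124 counts beside -1.90. Of these, ADAMTS16, RSPO3, GBP1 and PLPPR4 stood near the olfactory level in treated CHLA-266 cells. In the other direction, PINLYP had -2.82 (54 and 6 counts) beside 2.03, CACNG7, a subunit of calcium channels and of glutamate receptor complexes, -1.66 (129 and 34 counts) beside 2.91, and DIO2, which activates thyroid hormone, -1.26 (240 and 84 counts) beside 3.09.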

How the results depend on the processing

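Scaling by upper quartiles moved the median of all genes from -0.10 to 0.19 and left 1266 lower genes, and library totals moved the median to 0.061. A minimum of 10 counts gave 4938 higher genes and a median of 0.11, and a minimum of 200 counts gave 1082 higher genes, a median of -0.24 and 8 lists with a median past 2-fold in place of 13. With 50 counts in both libraries there were 1105 higher genes, a median of -0.21 and 7 lists, and with halved counts 1570 higher genes and a median of -0.19. Differences of the deposited log2 values, which the transformation shrinks for scarce genes, gave 1115 higher and 1265 lower genes and 5 lists. A filter on the olfactory level, added after seeing the data, gave 1917 higher and 1946 lower genes. Of the 13 lists, 10 kept their direction in every alternative run and 5 stayed past 2-fold. The 3 that reversed were marker lists of other cells, lymphoid (-0.73 with a minimum of 200 counts and with 50 counts in both, -0.72 with halved counts), endothelial (-1.36 with 50 counts in both) and myeloid (-0.51 with 50 counts in both and with halved counts). All 101 key genes past 2-fold kept their direction where they could be computed, and 69 stayed past 2-fold in each alternative. No paired analysis was possible because each condition of CHLA-266 has 1 library, and for the same reason no library could be left out. Depth limits scarce genes most, since 404 higher and 356 lower genes had intervals that reached inside 2-fold.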

Other observations

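Further families grouped by symbol stem, which were chosen after their values were seen, were lower in CHLA-266 beyond those of division. Among 22 nucleoporin genes (NUP) with 50 counts in both libraries 13 were at least 2-fold lower and the median was -1.31, among 13 LSM genes of RNA processing 7 were lower with a median of -1.26, and among 48 mitochondrial ribosomal protein genes (MRPL) 21 were lower with a median of -0.93. Outside the lists, genes that were at least 2-fold higher included the cytochromes P450 CYP4F3 with 558 and 2587 counts (2.46), CYP46A1, which hydroxylates cholesterol in neurons, with 797 and 2485 (1.88), and CYP1B1 with 119 and 360 (1.84). The adhesion receptor ADGRL3 had 6583 and 12885 counts (1.21) beside -1.35 in BT-16.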
